A study of Mus musculus with 4 samples.

Results

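The Schlafen genes of the mouse were examined in lung RNA-Seq libraries from mice treated with amiodarone, dabigatran or both drugs. The members are the 7 genes Slfn1, Slfn2, Slfn3, Slfn4, Slfn5, Slfn8 and Slfn9, taken by gene symbol from the 17780 genes of the deposited table. The family was picked because Slfn4 was much higher with amiodarone than with vehicle, so the difference between amiodarone and vehicle is described here and supports nothing by itself. Lung tissue came from male C57BL/6 mice (C57BL/6J in the methods), bought at 6 to 7 weeks of age, with 1 library in each of 4 groups. The mice received vehicle (carboxymethylcellulose), amiodarone at 300 mg per kg, dabigatran (given as its prodrug dabigatran etexilate) at 60 mg per kg, or amiodarone + dabigatran, by mouth 5 times per week. The labels give 28 days of treatment and the methods place tissue collection on day 26. Amiodarone is an antiarrhythmic drug that can injure the lung, and dabigatran blocks the clotting enzyme thrombin. Whole lung tissue holds many cell types, and a transcript that is higher in 1 library can come from more cells that express it or from more RNA per cell, which cannot be told apart here.

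Expression is given as FPKM, a level corrected for transcript length and for the depth of each library, beside the estimated reads it rests on. The reads assigned to genes summed to between 17498486 and 18903401 per library. All 8 lung epithelial markers were present in each library, the lowest value being 58.63 FPKM, and the surfactant gene Sftpc had 19587 to 20385 FPKM. A ratio is given with its exact Clopper-Pearson 95% interval from the reads of the libraries compared. The interval covers counting error only. With 1 library per group no test across animals was possible, and each ratio compares libraries and not treatments.

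Schlafen proteins share a domain that binds RNA, and several of them cleave or restrict transfer RNAs and so slow translation. Many Schlafen genes are induced by type I interferon, and they are best known from lymphocytes and myeloid cells, where they are linked to quiescence, differentiation and antiviral defence. In the mouse they are sorted by protein length into short members (Slfn1 and Slfn2), intermediate members (Slfn3 and Slfn4) and long members that carry a helicase-like domain (Slfn5, Slfn8 and Slfn9). The coding sequences annotated in GENCODE M21 follow this order, with 1014 and 1137 bases for Slfn1 and Slfn2, 1923 and 1809 bases for Slfn3 and Slfn4, and 2655, 2733 and 2733 bases for Slfn5, Slfn8 and Slfn9.

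By sequence the 7 genes fell into a pair of sets. Slfn3 and Slfn4 were identical at 1563 of 1649 aligned coding bases (94.8%), and Slfn8 and Slfn9 at 2534 of 2733 (92.7%). Among Slfn1, Slfn2, Slfn3 and Slfn4 the best local alignments held 31.6% to 86.4% of the shorter coding sequence as identical bases. Between any of these genes and any long member the share was at most 6.51%. Close copies matter for the measurement, since reads that match more than 1 gene are divided among them by estimation. Of all stretches of 50 bases in its annotated transcripts, Slfn8 shared 14.6% with another Schlafen gene of chromosome 11, Slfn9 11.2%, Slfn4 8.15%, Slfn3 7.39%, Slfn2 4.27% and Slfn1 0.606%, and Slfn5 shared none. Slfn4 and Slfn1 had whole-number read estimates in all 4 libraries, whereas those of Slfn9 were fractional in all 4, and so were those of Slfn5. The levels of Slfn3, Slfn8 and Slfn9, low genes with a close copy or pseudogene, are given as uncertain.

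**Figure D1:**
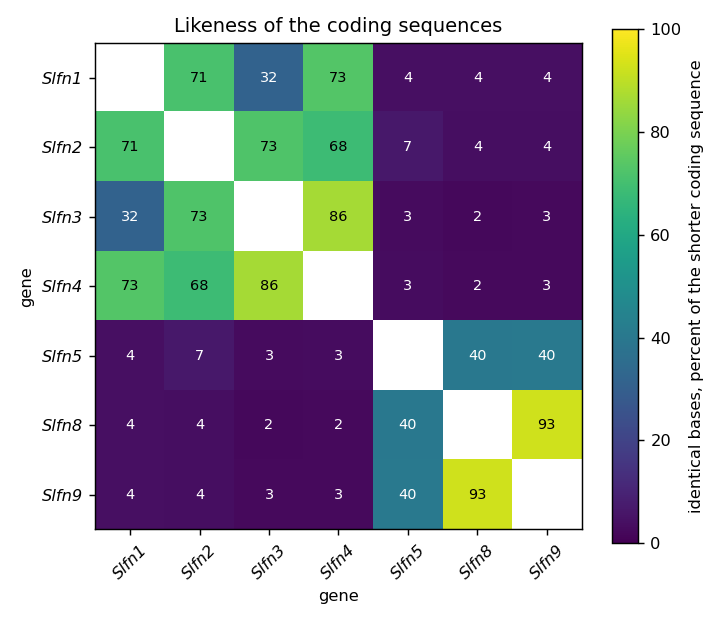
Likeness of the coding sequences of the 7 Schlafen genes, as identical bases in the best local alignment in percent of the shorter coding sequence (colour scale). Slfn1 to Slfn4 are alike among themselves, Slfn8 and Slfn9 are near copies at 92.7%, and the shares between the sets are at most 6.51%.

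The promoters are shown beside the coding sequences and match their sets only in part, with Slfn3 apart from Slfn1, Slfn2 and Slfn4. The RefSeq windows of GRCm38.p6, from 250 bases before to 50 bases after a start site, were found for all 7 members and searched on both strands. The block ACTTCCTGGAG (CTCCAGGAAGT on the other strand), whose left part ACTTCCT is the core bound by ETS-family factors, lay 55 to 74 bases before the start of Slfn1, Slfn2 and Slfn4. It was in 0.0731% of all 32851 windows. The block was taken from these promoters before it was counted, as the longest run of bases shared by the windows of Slfn1, Slfn2 and Slfn4. Its presence in them was therefore fixed in advance, and its share of all windows supports nothing. Slfn3, the near copy of Slfn4 in its coding part, held ACTTCCT on each strand but not the whole block, and that core was in 9.35% of windows on either strand. The core of the interferon-stimulated response element, the site of the interferon-activated factor ISGF3, was searched as GAAA repeated after any 2 bases. It was in the windows of Slfn5, Slfn8 and Slfn9, beside 3.44% of all windows. Only exact matches were counted, so a window without a match may still hold a variant of the element. The Slfn5 match runs on into a row of A bases. No member held the core of the gamma-activated site, TTC and GAA with any 3 bases between them, which was in 8.30% of windows. A match is a string of letters and not a measured binding site. In the following stretches, read along the gene, capitals mark the block in Slfn1, Slfn2 and Slfn4, ACTTCCT or its reverse complement in Slfn3, and the response element core in Slfn5, Slfn8 and Slfn9.
Slfn1 (chr11:83116721-83116781, plus strand): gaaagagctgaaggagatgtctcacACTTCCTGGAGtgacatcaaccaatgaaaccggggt
Slfn2 (chr11:83065032-83065092, plus strand): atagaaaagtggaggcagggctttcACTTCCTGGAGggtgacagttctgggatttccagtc
Slfn3 (chr11:83191244-83191304, plus strand): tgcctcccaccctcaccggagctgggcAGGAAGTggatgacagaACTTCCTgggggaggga
Slfn4 (chr11:83175088-83175148, plus strand): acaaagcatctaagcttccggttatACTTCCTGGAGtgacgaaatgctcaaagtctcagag
Slfn5 (chr11:82951922-82951982, plus strand): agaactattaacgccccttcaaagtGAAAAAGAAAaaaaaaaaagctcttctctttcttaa
Slfn8 (chr11:83020823-83020883, minus strand): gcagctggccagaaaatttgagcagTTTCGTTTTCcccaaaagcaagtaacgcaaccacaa
Slfn9 (chr11:82991840-82991900, minus strand): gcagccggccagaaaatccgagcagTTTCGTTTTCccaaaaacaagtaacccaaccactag
The Slfn8 and Slfn9 stretches carry the same TTTCGTTTTC, 48 and 45 bases before a start site (RefSeq gives Slfn8 another start site farther from its match), and the Slfn5 match lies 155 bases before the start site of its window. The whole window of Slfn4, the gene with the largest difference, is given for context, with the block in capitals.
Slfn4 window (chr11:83174936-83175235, plus strand): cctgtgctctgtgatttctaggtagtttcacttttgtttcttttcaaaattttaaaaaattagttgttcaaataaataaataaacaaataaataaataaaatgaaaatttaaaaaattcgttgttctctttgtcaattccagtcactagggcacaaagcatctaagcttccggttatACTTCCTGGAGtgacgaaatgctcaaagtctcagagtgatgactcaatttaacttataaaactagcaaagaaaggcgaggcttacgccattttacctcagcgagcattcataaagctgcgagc

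In the vehicle library the family was carried by Slfn2 and Slfn5. Slfn2, which keeps T cells and monocytes in a resting state, had 28.08 FPKM (791 reads), more than 83.3% of all listed genes. Slfn5, a nuclear protein induced by interferon, had 23.38 FPKM (2418 reads). Slfn1, first described as a brake on the growth of thymocytes, had 5.48 FPKM (173 reads), and the other 4 members had between 0.90 and 1.84 FPKM. The counting intervals of neighbours in this order did not overlap from Slfn2 down to Slfn8, whereas from Slfn8 through Slfn3 and Slfn4 to Slfn9 each overlapped with the next. After amiodarone the order was Slfn2, Slfn4, Slfn5, Slfn1, Slfn8, Slfn3 and Slfn9, and only Slfn3 and Slfn9 overlapped. After dabigatran Slfn5 and Slfn2 led with overlapping intervals, followed by Slfn1, Slfn8, Slfn4, Slfn9 and Slfn3, with overlap between Slfn4 and Slfn9 and between Slfn9 and Slfn3. After the combination the order was Slfn2, Slfn5, Slfn1, Slfn4, Slfn8, Slfn9 and Slfn3, with overlap between Slfn9 and Slfn3 alone. The 7 genes summed to 62.0 FPKM after vehicle, 188 after amiodarone, 63.0 after dabigatran and 112 after both drugs. Slfn4 made up 1.87%, 26.7%, 1.78% and 13.3% of this sum in that order.

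**Figure D2:**
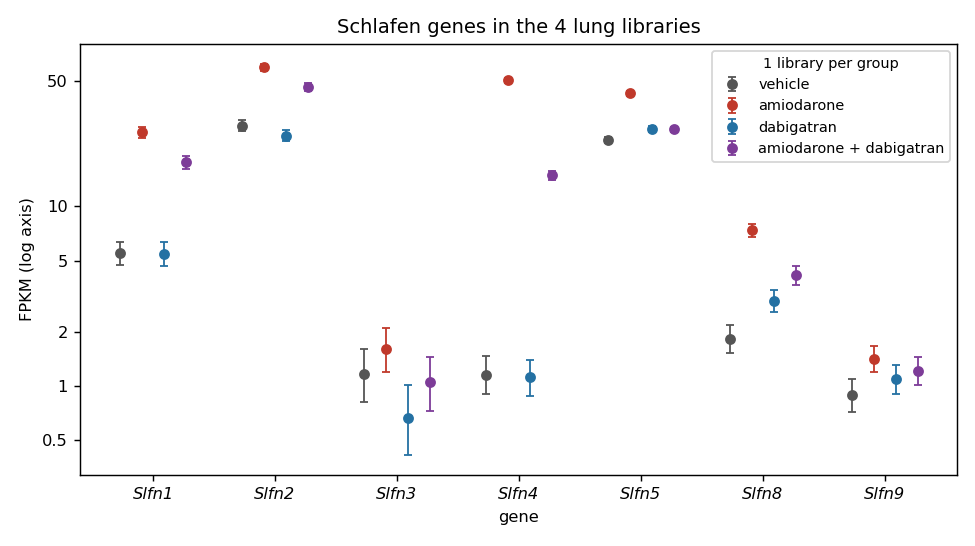
FPKM (log axis) of each Schlafen gene in the 4 lung libraries, 1 point per library, with exact Poisson 95% intervals of the reads as error bars. Slfn4 is near 1 FPKM with vehicle and with dabigatran and at 50.21 FPKM with amiodarone.

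With amiodarone, Slfn4 changed far more than its relatives. Slfn4, a gene of myeloid cells that is induced when macrophages are activated, stood at 1.16 FPKM after vehicle, 50.21 after amiodarone, 1.12 after dabigatran and 14.86 after amiodarone + dabigatran, from 69, 3335, 73 and 1029 reads. The vehicle and dabigatran libraries were alike and low, the amiodarone library was highest, and the combination lay between them. Its ratio of amiodarone to vehicle was 43.3 (95% interval 34.1 to 55.8), the second largest on the log2(FPKM + 1) scale of the 13402 genes that reached 1 FPKM in at least 1 of both libraries. It moved from above 27% of listed genes with vehicle to above 91.3% with amiodarone, and became the second most abundant Schlafen transcript after Slfn2. Slfn3, its neighbour and near copy, had 1.17, 1.61, 0.67 and 1.05 FPKM in the same order of libraries, from 36, 53, 21 and 35 reads. Its ratio of 1.38 (0.884 to 2.16) lay within counting error.

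The short members also had higher values with amiodarone. Slfn1 reached 5.48 FPKM after vehicle, 25.79 after amiodarone, 5.44 after dabigatran and 17.53 after the combination, from 173, 871, 174 and 598 reads. Both libraries with amiodarone lay above both without it, and the ratio of amiodarone to vehicle was 4.71 (3.99 to 5.57). Slfn2 had 28.08, 59.33, 24.72 and 46.07 FPKM in the same order, from 791, 1789, 706 and 1403 reads, again with both amiodarone libraries above the others. Its ratio was 2.11 (1.94 to 2.30).

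Among the long members Slfn5 departed from this pattern in the combination library. Slfn5 stood at 23.38 FPKM after vehicle, 42.42 after amiodarone, 26.96 after dabigatran and 26.76 after the combination, from 2418, 4707, 2836 and 2998 reads. The amiodarone library stood highest, at a ratio to vehicle of 1.81 (1.73 to 1.91). The dabigatran and combination libraries lay near each other, also above vehicle beyond counting error, at 1.15 (1.09 to 1.22) and 1.14 (1.08 to 1.21). Slfn8, whose protein carries the helicase-like domain, had 1.84, 7.35, 2.98 and 4.13 FPKM in the same order, from 123, 530, 200 and 274 reads, and its ratio was 3.99 (3.28 to 4.90). Slfn9, the near copy of Slfn8, had 0.90, 1.42, 1.10 and 1.22 FPKM, from 89, 150, 111 and 132 reads, with a ratio of 1.58 (1.21 to 2.07). Slfn8 and Slfn9 had both amiodarone libraries above the others, though the Slfn9 values of the combination and dabigatran lay within counting error. It passed the 1 FPKM filter in this comparison through the amiodarone library alone.

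All 7 members passed the filter in every comparison, though Slfn3 and Slfn9 passed some of them through 1 library alone. Between amiodarone and vehicle 4 of the 7 (Slfn1, Slfn2, Slfn4 and Slfn8) were at least 2-fold higher on the log2(FPKM + 1) scale, beside 1.87% of all genes, and none was at least 2-fold lower, beside 0.545%. Differences beyond counting error, meaning that the interval excludes 1, were found for 6 members that were higher, beside 19.6% of genes, and for none that was lower, beside 30.1%. The median log2 difference was 1.05 for the members and -0.05 over all genes. The family was picked on this comparison, and nothing is read from these counts.

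Of the 4 listed genes before the cluster, 1 was at 0 with vehicle and with amiodarone, and the others had ratios of amiodarone to vehicle from 0.724 (Nle1) to 1.03 (Unc45b). On chromosome 11, 9 listed Schlafen genes lie from 82951349 to 83286726 of GRCm38.p6, in 335378 bases, with no other listed gene between them. Slfn5 (82951349 to 82964850) comes first, then Slfn9 (82974316 to 82991830), Slfn8 (83002125 to 83020810), Slfn10-ps, Slfn2 (83065112 to 83070678), Slfn1 (83116820 to 83122670), Slfn4 (83175172 to 83190216), Slfn3 (83191330 to 83215154) and Slfn14. In the table these genes carry the Entrez identifiers 327978 (Slfn5), 237886 (Slfn9), 276950 (Slfn8), 20556 (Slfn2), 20555 (Slfn1), 20558 (Slfn4) and 20557 (Slfn3). The gene before the cluster, Unc45b, a chaperone of muscle myosin, had 11.22 FPKM with vehicle and 11.58 with amiodarone, a ratio of 1.03 (0.930 to 1.15). Within the cluster the low genes Slfn10-ps, a pseudogene with at most 0.31 FPKM, and Slfn14, which is known from platelets and had at most 0.22 FPKM, gave ratios of 1.29 (0.497 to 3.46) and 2.67 (0.704 to 14.9) that lay within counting error. Slfnl1, a Schlafen-like gene on chromosome 4, had 3 reads in the dabigatran library and 0 in the others. RefSeq places the antisense gene Slfn5os over Slfn5, and the sources used here do not state whether counting used strand.

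**Figure D3:**
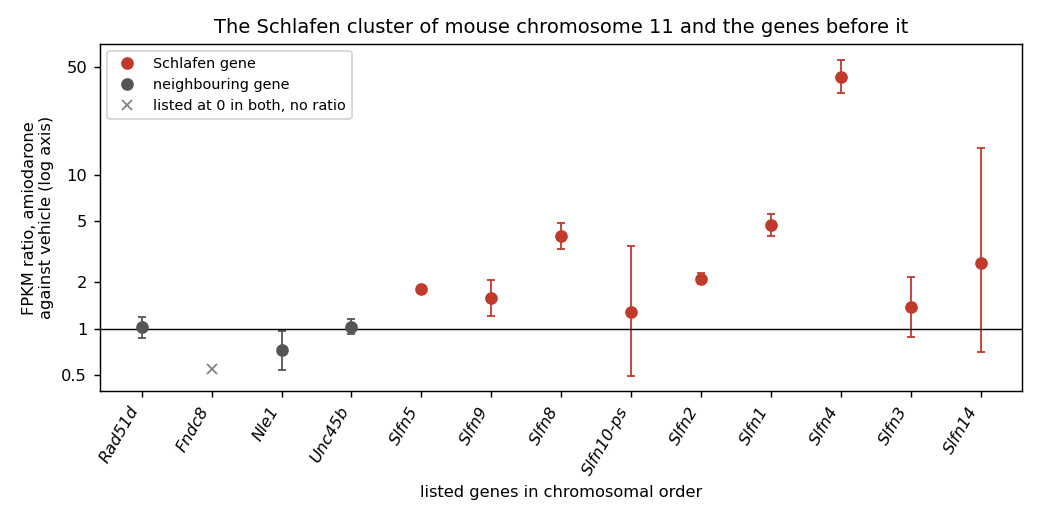
FPKM ratio of amiodarone to vehicle (log axis) for listed genes in chromosomal order across the Schlafen cluster of chromosome 11 and the 4 genes before it, with 95% counting intervals. Slfn4 has the highest ratio at 43.3, next to Slfn3 at 1.38, and the flanking gene Unc45b is at 1.03.

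Dabigatran alone is the control for the effect of this drug on the family. None of the 7 members was at least 2-fold higher or lower than with vehicle, beside 0.0897% and 0.0673% of 13373 genes, and the median log2 difference was -0.01, against 0.00 over all genes. Slfn8 was higher at a ratio of 1.62 (1.29 to 2.04) and Slfn5 at 1.15 (1.09 to 1.22). These 2 were the members higher beyond counting error, beside 15.2% of genes. Slfn2 was lower at 0.880 (0.794 to 0.976), the single member lower beyond counting error, beside 13.4% of genes. Slfn4, at 0.966 (0.685 to 1.36), and Slfn1, at 0.993 (0.80 to 1.23), lay within counting error, as did Slfn3 at 0.573 (0.318 to 1.01) and Slfn9 at 1.22 (0.916 to 1.63). By value the long members had ratios above 1 and the others ratios below 1, with 3 of the 7 differences beyond counting error. Slfn9 passed the 1 FPKM filter here through the dabigatran library alone, at 1.10 FPKM beside 0.90 with vehicle. Slfn3 passed it through the vehicle library alone, at 1.17 FPKM beside 0.67 with dabigatran. The directions of Slfn3 and Slfn9 therefore support nothing, and no split by protein length is read from these ratios. With reads scaled to the library total Slfn4 turned to 1.04.

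Whether the family differed when dabigatran was added to amiodarone is given by the combination and amiodarone libraries. Slfn4 was lower with the combination at a ratio of 0.296 (0.276 to 0.317), the only member at least 2-fold lower, beside 0.287% of 13261 genes. No member was at least 2-fold higher, beside 0.189%. Slfn8 followed at 0.562 (0.484 to 0.651), Slfn5 at 0.631 (0.602 to 0.661), Slfn1 at 0.680 (0.612 to 0.755) and Slfn2 at 0.777 (0.724 to 0.833). These 5 members were lower beyond counting error, beside 15.0% of genes, and none was higher, beside 21.2%. At a mark of 1.5-fold 3 members were lower (Slfn4, Slfn5 and Slfn8), beside 1.22% of genes. Slfn3 at 0.652 (0.413 to 1.02) and Slfn9 at 0.859 (0.675 to 1.09) lay within it. The median log2 difference was -0.53 for the members and 0.03 over all genes. This comparison shares the amiodarone library with that of amiodarone and vehicle, so the values of both are not independent.

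The combination and dabigatran libraries give the change with amiodarone without any library of the comparison on which the family was picked. Slfn4 was again the highest, at a ratio of 13.3 (10.5 to 17.1), rank 5 of 13379 genes on the log2(FPKM + 1) scale. Slfn1 was at 3.22 (2.72 to 3.84) and Slfn2 at 1.86 (1.70 to 2.04). Slfn8 was at 1.39 (1.15 to 1.67), Slfn9 at 1.11 (0.855 to 1.44) and Slfn5 at 0.993 (0.943 to 1.05). Slfn3 was at 1.57 (0.887 to 2.83) on 35 and 21 reads. At least 2-fold higher were 2 members (Slfn1 and Slfn4), beside 1.15% of genes, and none was at least 2-fold lower, beside 0.434%. Beyond counting error 4 members were higher, beside 19.5% of genes, and none was lower, beside 23.5%. The median log2 difference was 0.37 for the members and -0.01 over all genes. Slfn3 entered this comparison through the combination library alone, at 1.05 FPKM beside 0.67 with dabigatran, so its ratio above 1 supports nothing.

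Against vehicle, the combination left Slfn4 at a ratio of 12.8 (10 to 16.6), Slfn1 at 3.20 (2.70 to 3.81), Slfn8 at 2.24 (1.81 to 2.80), Slfn2 at 1.64 (1.5 to 1.79), Slfn9 at 1.36 (1.03 to 1.79), Slfn5 at 1.14 (1.08 to 1.21) and Slfn3 at 0.897 (0.547 to 1.47). Of these, Slfn1 and Slfn4 were at least 2-fold higher, beside 1.17% of 13390 genes, and none was at least 2-fold lower, beside 0.418%. Slfn8 was below that mark on the log2(FPKM + 1) scale, and at a mark of 1.5-fold 4 members were higher, beside 3.20%. Beyond counting error 6 members were higher, beside 20.0% of genes, and none was lower, beside 22.6%. Slfn9 is among the 6 but passed the 1 FPKM filter here through the combination library alone, at 1.22 FPKM beside 0.90 with vehicle. Its place in this count supports nothing.

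**Figure D4:**
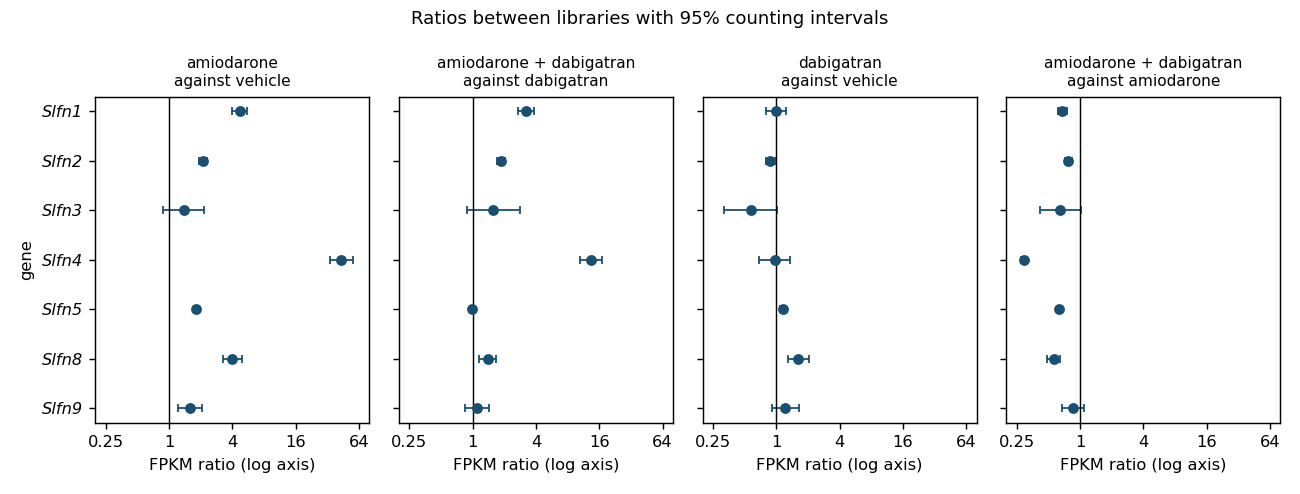
FPKM ratios (log axis) of the 7 Schlafen genes in 4 comparisons of libraries, with 95% counting intervals and a line at 1. With amiodarone against vehicle the intervals of all genes but Slfn3 lie above 1, and with the combination against dabigatran those of Slfn4, Slfn1, Slfn2 and Slfn8 do.

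The change with amiodarone can be set side by side with and without dabigatran, over 4 separate libraries. For Slfn4 the ratio with dabigatran was 0.307 times the ratio without it (95% counting interval 0.219 to 0.429), for Slfn8 0.347 times (0.265 to 0.453) and for Slfn5 0.547 times (0.510 to 0.587). For Slfn1 it was 0.685 times (0.541 to 0.866) and for Slfn2 0.882 times (0.780 to 0.998). The intervals of Slfn9, at 0.703 (0.488 to 1.01), and of Slfn3, at 1.14 (0.573 to 2.26), include 1. The family was picked on the ratio without dabigatran, so these quotients are a description, and a smaller second ratio for the gene picked supports nothing. Over the 3 treated libraries, as differences from vehicle on the log2(FPKM + 1) scale, Slfn3 and Slfn4 lay 5.23 apart, the widest of all pairs. The other close copies, Slfn8 and Slfn9, lay 1.40 apart and had the same direction in each comparison, with Slfn9 nearer to no difference. Slfn5 and Slfn9, at 0.49, were the nearest pair.

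**Figure D5:**
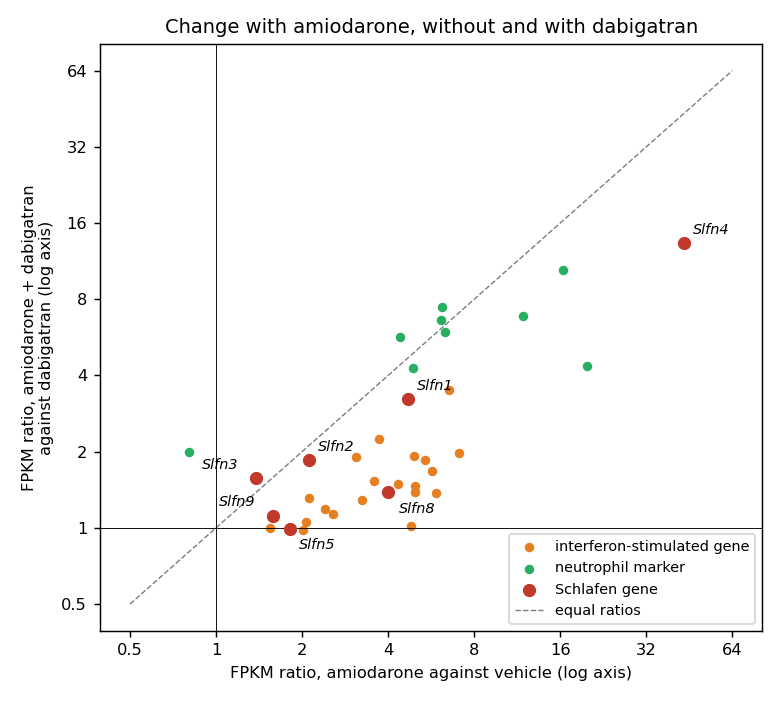
FPKM ratio of the combination to dabigatran against the ratio of amiodarone to vehicle (both log axes) for Schlafen genes, interferon-stimulated genes and neutrophil markers, 1 point per gene; the dashed line marks equal ratios. Slfn4 lies at 43.3 and 13.3, Slfn5 at 1.81 and 0.993.

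The genes most like Slfn4 were sought among 13123 genes by the distance between log2(FPKM + 1) differences from vehicle in the 3 treated libraries. Retnlg, a resistin-like protein of neutrophils, came nearest at a distance of 1.16, at 9.24, 110, 9.22 and 63.5 FPKM in the order of vehicle, amiodarone, dabigatran and the combination. Gpnmb, a glycoprotein of lipid-laden macrophages, followed at 1.47, with 37.9 FPKM after amiodarone and 37.0 after the combination. Then came the chemokine receptor gene Cxcr1 at 1.51, with 12.7 and 15.6 FPKM, Wfdc17 at 1.66, with 59.9 and 48.4 FPKM, and Chil3, a chitinase-like protein of alveolar macrophages, at 1.68, with 731 and 940 FPKM. Between these libraries Slfn4, Retnlg, Wfdc17 and, slightly, Gpnmb were lower with the combination, whereas Cxcr1 and Chil3 were higher. None of these genes lay within 1 unit of Slfn4. For Slfn2, the most abundant member, AA986860 was nearest at 0.09, followed by a gene listed only by its identifier (105246811) at 0.11, and by Pmvk, Mreg and Prmt8 at 0.13 each. These distances rest on 4 libraries and describe likeness of values only.

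Type I interferon acts through a receptor of the chains Ifnar1 and Ifnar2 and the kinases Jak1 and Tyk2 to activate transcription factors that switch on target genes. None of the 9 ligand genes searched was listed in the table. The 4 receptor and kinase genes had ratios of amiodarone to vehicle from 0.941 to 1.01. Of the transcription factors, Irf7 was at 14.7 FPKM with vehicle and 87.0 with amiodarone. Irf3, which responds by phosphorylation, was at 42.3 and 39.3 FPKM. Of the 20 listed target genes 17 were at least 2-fold higher, beside 1.87% of all genes, and none lower, beside 0.545%. Their median log2 difference was 1.84. Bst2, a tether of budding virus and the most abundant target by its mean over the libraries, had 86.2 and 182 FPKM, and Ifit3 had 36.9 and 184. Between the combination and dabigatran 1 of these 20 targets reached 2-fold higher, beside 1.15% of genes. The ratios of the 20 ran from 0.977 to 3.51 with a median of 1.43. Slfn8, at 1.39, Slfn9, at 1.11, and Slfn5, at 0.993, lay within that range, as did Slfn1, Slfn2 and Slfn3, and Slfn4 lay above it at 13.3. Between the combination and amiodarone all 20 targets were lower beyond counting error, beside 15.0% of genes. Of them 10 were at least 2-fold lower, beside 0.287%. The ratios of the 20 ran from 0.276 to 0.701. That range holds Slfn4 at 0.296, Slfn8 at 0.562, Slfn5 at 0.631, Slfn3 at 0.652 and Slfn1 at 0.680. Slfn2, at 0.777, and Slfn9, at 0.859, lay above it. Of the 4 inhibitor genes, Socs3 and Usp18 were at least 2-fold higher with amiodarone, at ratios of 3.15 and 3.25, beside 1.87% of all genes. The related translation-restricting genes Eif2ak2, Zc3hav1 and Samhd1 had ratios of 1.64, 1.42 and 1.15.

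Markers of cell types that express Schlafen genes also differed between the libraries. The 10 neutrophil markers summed to 93.2 FPKM after vehicle, 609 after amiodarone, 70.0 after dabigatran and 437 after the combination. Of the 9 that passed the filter between amiodarone and vehicle, 8 were at least 2-fold higher, beside 1.87% of all genes. S100a9, the most abundant, was at 45 and 276 FPKM. Between the combination and dabigatran 7 of 8 were at least 2-fold higher, beside 1.15% of genes, with ratios from 1.99 to 10.4. Between the combination and amiodarone 7 of 9 were lower beyond counting error, beside 15.0% of genes, and 1 was at least 2-fold lower, beside 0.287%. Those 9 ratios ran from 0.356 to 1.77 with a median of 0.750. Slfn4, at 0.296, lay below that range, and the other Schlafen members lay within it. No marker was at 0, and the lowest was Ly6g at 0.07 FPKM with vehicle. Over the 4 libraries the sum of neutrophil markers was highest with amiodarone, then with the combination, vehicle and dabigatran. Slfn1, Slfn2 and Slfn4 had the same order, with the vehicle and dabigatran values of Slfn1 and Slfn4 within counting error of each other. The monocyte and macrophage sums differ from the neutrophil order only in the vehicle and dabigatran libraries, so Slfn1 and Slfn4 do not tell the orders of the sums apart. The macrophage sums with amiodarone and with the combination are close, at 5893 and 5862 FPKM. Lyz2 makes up most of both, at 4907 and 4618 FPKM, whereas Chil3 goes the other way, at 731 and 940 FPKM. Slfn8 and Slfn9 had the order of the monocyte and macrophage sums given next, with dabigatran above vehicle. The 20 listed interferon target genes had this order too. They summed to 284, 980, 321 and 455 FPKM after vehicle, amiodarone, dabigatran and the combination. The order is thus not particular to monocyte or macrophage markers. Fn1 weighs on the monocyte sum, at 50.3 FPKM with vehicle and 62.7 with dabigatran. For Slfn9 the differences between dabigatran and vehicle and between the combination and either single drug lay within counting error. Single markers do not all follow these sums. Between dabigatran and vehicle 2 of 8 monocyte markers were higher beyond counting error, beside 15.2% of genes, and 2 were lower, beside 13.4%. Their median log2 difference was -0.11. Between the combination and amiodarone 7 of 12 macrophage markers were higher beyond counting error, beside 21.2% of genes, and 3 were lower, beside 15.0%.

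The 8 monocyte markers summed to 163, 301, 174 and 276 FPKM in the order of vehicle, amiodarone, dabigatran and the combination. Ly6c2, the most abundant by its mean over the libraries, had 28.2, 115, 34.9 and 75.8 FPKM, whereas Fn1 had 50.3, 39.8, 62.7 and 56.1 FPKM. The 12 macrophage markers summed to 3679, 5893, 3998 and 5862 FPKM, most of it Lyz2. Of the 12, 5 were at least 2-fold higher with amiodarone than with vehicle, beside 1.87% of all genes. The 8 listed T lymphocyte markers summed to 41.1, 38.0, 44.0 and 38.9 FPKM. None was at least 2-fold higher or lower with amiodarone, beside 1.87% and 0.545% of genes. The 6 B lymphocyte markers summed to 179, 62.4, 152 and 112 FPKM, with 4 at least 2-fold lower with amiodarone, beside 0.545% of genes. The 7 natural killer cell markers summed to 52.0, 71.9, 94.2 and 82.3 FPKM, and Gzmb, a cytotoxic granule protease among them, had a ratio of amiodarone to vehicle of 3.70 (2.84 to 4.88). The 8 dendritic cell markers summed to 38.6, 32.5, 38.2 and 33.1 FPKM, the 6 endothelial markers to 1009, 1056, 1175 and 936 FPKM, and the 6 fibroblast markers to 443, 314, 510 and 350 FPKM. The 8 lung epithelial markers summed to 152247, 102884, 126606 and 127420 FPKM, most of it the club cell gene Scgb1a1 with 124168, 73994, 99032 and 97786 FPKM, and the surfactant gene Sftpd had 481, 828, 477 and 594 FPKM. Of the 7 proliferation genes that passed the filter and the 8 quiescence genes, none was at least 2-fold higher or lower with amiodarone on the log2(FPKM + 1) scale. By FPKM the proliferation gene Birc5 had a ratio of 2.10 (1.38 to 3.23). Beyond counting error 4 of the 7 proliferation genes were higher, beside 19.6% of genes, and 0 were lower, beside 30.1%. The part of cell numbers in the Schlafen values was not tested.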

How the data were processed

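Lung libraries from 4 groups of mice, 1 per group, were assigned to groups from the treatment labels. Per the methods, the authors used HISAT 2.0.4 for the genome (GRCm38.p6), Bowtie2 2.2.5 for the gene set, and RSEM 1.2.8 for expression. The deposited table of 17780 genes gives a normalised value and an estimated count of reads per library. The deposited normalised values were read as FPKM on a linear scale, since reads per unit of value had a median quotient between libraries (1.07, amiodarone to vehicle, 6929 genes) equal to that of their total reads. Single genes depart from it. The 8 columns with the authors' means over 2 libraries were not used, and 1 symbol is listed for 2 identifiers. Of the identifiers, 99.4% were found in the RefSeq table.

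Ratios are of FPKM, with exact Clopper-Pearson intervals at 95% from reads rounded to whole numbers (scipy 1.17.1). Counts of genes used log2(FPKM + 1), which understates changes of low genes, at least 1 FPKM in either library and a 2-fold mark. A count of 0 allows up to 3 reads. Fragments are not independent molecules. Coding sequences were aligned locally with Biopython 1.88. The procedure was tested on simulated data. Genes named are the members, other Schlafen genes, the most abundant genes of the lists, the 5 genes nearest in pattern to Slfn4 and to the most abundant member, and a chromosomal neighbour. Some named genes under this rule are not reported here. Ly6g, Nle1, Sftpd, Gzmb and the translation-restricting genes were named with their values known. The members and lists were chosen with earlier results of these data known. Alternatives were a pseudocount of 0.1, filters of 5 FPKM or none, a 1.5-fold mark, calls beyond counting error, rescaling by the median ratio and reads scaled to library totals.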

Additional observations from a re-analysis of the deposited data

Results flagged for a closer look

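Results were set apart here where a drug gave differences of opposite direction with and without the other drug. Each rests on 1 library per arm, and the differences in direction were not tested across animals. With dabigatran, the 3 long Schlafen genes were higher without amiodarone and lower with it. Slfn8 had a ratio of 1.62 for dabigatran against vehicle and of 0.562 for the combination against amiodarone. Slfn5 had ratios of 1.15 and 0.631, and Slfn9 of 1.22 and 0.859, both of the Slfn9 differences within counting error. Slfn9 passed the 1 FPKM filter between dabigatran and vehicle through the dabigatran library alone, so its direction there supports nothing. With amiodarone, Slfn5 had a ratio of 1.81 against vehicle and of 0.993 for the combination against dabigatran, the latter within counting error. Slfn1, Slfn2 and Slfn3 kept 1 direction in each pair of comparisons. So did Slfn4, except that with reads scaled to the library total its ratio for dabigatran against vehicle was 1.04. For dabigatran against vehicle, Slfn1, Slfn3 and Slfn4 lay within counting error.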

How the results depend on the processing

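No paired analysis was possible because each group has 1 library and no result comes from a test. Leaving out a replicate was not possible for the same reason. With rescaled FPKM, reads scaled to library totals, a pseudocount of 0.1 or no filter, each count of members stayed within 1.5 times its value. With a pseudocount of 0.1 the median log2 difference of the combination against dabigatran went from 0.37 to 0.58, and 3 members in place of 2 were at least 2-fold higher than with vehicle. With reads scaled to library totals the median for dabigatran against vehicle went from -0.01 to 0.05 and the Slfn4 ratio from 0.966 to 1.04. All 35 member ratios stayed within their counting intervals under both scalings. Rescaling factors ran from 0.976 to 1.01. At a 1.5-fold mark, 4 members were higher with the combination than with vehicle in place of 2, and 3 were lower than with amiodarone in place of 1. Counting any difference beyond counting error gave 6 members higher with the combination against vehicle, 4 against dabigatran in place of 2, and 5 lower against amiodarone. For dabigatran against vehicle it gave 2 higher and 1 lower in place of 0. A filter of 5 FPKM, which left 3 to 5 members, moved the median log2 difference to 1.56 for amiodarone against vehicle, 1.2 for the combination against dabigatran and 1.11 against vehicle, since fewer genes entered. Slfn3, with 21 to 53 reads, is the member most limited by depth.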
